A study of Mus musculus with 10 samples.

Results

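The 10 imprinted genes Meg3, Rian, Mirg, Peg3, Peg10, Ndn, Magel2, Snrpn, Zdbf2 and Igf2 were examined in the nucleus accumbens (NAc), a ventral striatal region, of 2 inbred mouse strains, C57BL/6J (B6) and DBA/2J (D2). They were chosen by symbol, as imprinted genes known for expression in the brain, and all 10 were among the 29883 genes of the count table. Poly-A RNA was sequenced from 5 B6 and 5 D2 mice, all male, untreated and 9 weeks old, with 1 library per mouse. Each library came from dissected tissue holding many cell types, so fewer cells of a type and less RNA per cell cannot be told apart here.

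An imprinted gene is transcribed mainly or only from the copy inherited from one parent, the other copy being silenced by marks, chiefly DNA methylation, set in the germ line. Imprinted genes lie in clusters that share a control region, and many are abundant in brain and placenta, where they affect growth, feeding and maternal care. Counts per gene do not tell the parental copies apart, and D2 reads were aligned to the B6 genome. The expressed allele was not measured.

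Meg3, Rian and Mirg are long non-coding RNAs made from the maternal copy of the Dlk1-Meg3 cluster on chromosome 12 (GRCm39), with Meg3 at chr12:109506877-109538165, Rian at chr12:109570242-109628150 and Mirg at chr12:109696198-109715898, all on the plus strand. The start region of Meg3 is shown because these were the genes that passed the strain test with all mice. It comes from the B6 reference genome, and D2 sequence was not examined. In the RefSeq table (GRCm38.p6) the first Meg3 promoter, chr12:109540746-109541045 on the plus strand, spans 250 bases before to 50 after the start and holds the cyclic AMP response element TGACGTCA, printed in capitals.

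Meg3 promoter: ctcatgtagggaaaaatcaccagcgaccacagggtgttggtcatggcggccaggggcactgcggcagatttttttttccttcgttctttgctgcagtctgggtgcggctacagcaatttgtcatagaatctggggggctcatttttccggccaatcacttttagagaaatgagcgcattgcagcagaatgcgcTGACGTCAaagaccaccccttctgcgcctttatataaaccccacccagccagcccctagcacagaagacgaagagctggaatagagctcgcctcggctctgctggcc

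The same 8 letters, which read identically on both strands, lay in promoters of Peg3 and Zdbf2. The element was found in 3 of 17 promoters listed for 9 of the genes (Peg10 had no entry), against 1.79% of 32851 mouse promoters. The 3 matches are given below as 30-base windows at chr12:109540928-109540957 (plus strand), chr7:6730579-6730608 (minus strand) and chr1:63273199-63273228 (plus strand) of GRCm38.p6. CGCATGCG, the core of the site of the factor NRF1, was in 5 of the 17 promoters, all of Ndn or Snrpn, and in 1.87% of all promoters. By gene it was in 2 of 9. All but the Ndn match lay in alternative promoters of Snrpn, several with nearly the same letters around it, so these are not separate cases. The Ndn match lies at chr7:62348243-62348272 on the plus strand. TGCCGC, the hexamer that ZFP57 reads when it is methylated, was in 4 of the 17 promoters and in 11.6% of all promoters on either strand. CCAAT was in 5 of the 17 promoters and in 37.4% of all promoters. A match describes these letters only.

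Meg3 element: gcagaatgcgcTGACGTCAaagaccacccc
Peg3 element: actgactccgtTGACGTCAactccgtgcct
Zdbf2 element: cgcaccttcgcTGACGTCAgagctgcagtg
Ndn NRF1 core: gcttcccaacaCGCATGCGcaatatcgcat

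Mirg is named for the microRNAs cut from it, and 6 microRNA hairpins lay within its annotated exons. Their 11 mature arms in the RefSeq table had 11 different seeds, the bases 2 to 8 by which a microRNA finds its targets. Poly-A libraries do not measure mature microRNAs, so the arms below, with the seed in capitals, show what the Mirg transcript can hold and not what was counted.

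mmu-miR-134-5p: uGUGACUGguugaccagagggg
mmu-miR-485-3p: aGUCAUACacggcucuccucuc
mmu-miR-377-3p: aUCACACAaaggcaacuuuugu
mmu-miR-410-3p: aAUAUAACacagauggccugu

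Total counts ran from 96977262 to 116776714 per mouse. B6 mice 3 and 5 stood apart from the rest. Their summed markers of cortex neurons (8 genes, 7 of them higher in both mice than in B6 mice 1, 2 and 4) reached 1034 and 1050 CPM (counts scaled to the effective library size by the TMM method), against 161 to 244 in B6 mice 1, 2 and 4 and 319 to 702 in D2 mice. They were also the lowest of the 10 mice for markers of choroid plexus (20.5 and 21.2 CPM, against 40.3 to 54.8) and meninges (33.3 and 35.9, against 43.1 to 86.3), and the highest for oligodendrocytes (6367 and 6333, against 3335 to 5301). The chi-square between their counts averaged 4.89 over 15388 genes, where sampling noise alone gives about 1, against 19.1 to 119 for the other B6 pairs and 17.5 to 51.2 for D2 pairs. They were kept as separate mice, as labeled, and the results on the 10 genes are given with and without both. The SEs and p-values with all mice treat their libraries as independent, which was not tested. Leaving out only 1 of them keeps the other. Striatal neuron markers were abundant in all mice, with sums of 4706 to 6011 CPM in B6 and 3902 to 4741 in D2. B6 mice 3 and 5 were the lowest B6 mice, at 4726 and 4706 against 5333 to 6011. In both, 7 of the 9 markers were below B6 mice 1, 2 and 4. Endothelial and mural sums of these 2 mice were the highest of all, at 384 and 388 CPM against 298 to 377. Hypothalamic neuron markers were at 1.12 to 2.01 CPM. Cell type markers also differed between the strains. Of the striatal markers 6 of 9 were called lower in D2 (median -0.35), as were 4 of 7 oligodendrocyte markers (median -0.34). None of the 8 cortex markers was called. Of astrocyte markers 4 of 6 were called (3 lower), and of endothelial and mural markers 3 of 9 (2 lower). The meningeal, choroid plexus, hypothalamic and microglial lists had 1 call each, where 18.3% of all genes were called. Without B6 mice 3 and 5, 7 of 9 striatal and 0 of 7 oligodendrocyte markers were called lower. In that fit 7 of 8 cortex markers were called higher in D2 (median 1.76), where 19.2% of all genes were called. The part of these differences in the strain differences of the imprinted genes was not tested beyond fits with cortex or meningeal markers as covariates.

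Of the 10 imprinted genes, 3 were called different between the strains, Meg3, Rian and Mirg, and all 3 were higher in D2. Over all genes 18.3% were called, and 8.5% were called as higher in D2 (edgeR quasi-likelihood test, Benjamini-Hochberg adjusted p under 0.05). The mean was higher in D2 for all 10 genes, by a median of 0.25 on the log2 scale, where the median over all genes was 0.0036. The direction did not hold for Peg10 and Magel2 once B6 mice 3 and 5 were left out, when the median was 0.13 and 2 of the 10 genes, Meg3 and Snrpn, were called against 19.2% of all genes. The values of the 5 mice of a strain did not overlap those of the other for 2 of the 10 genes, Meg3 and Rian, against 16% of all genes.

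**Figure D1:**
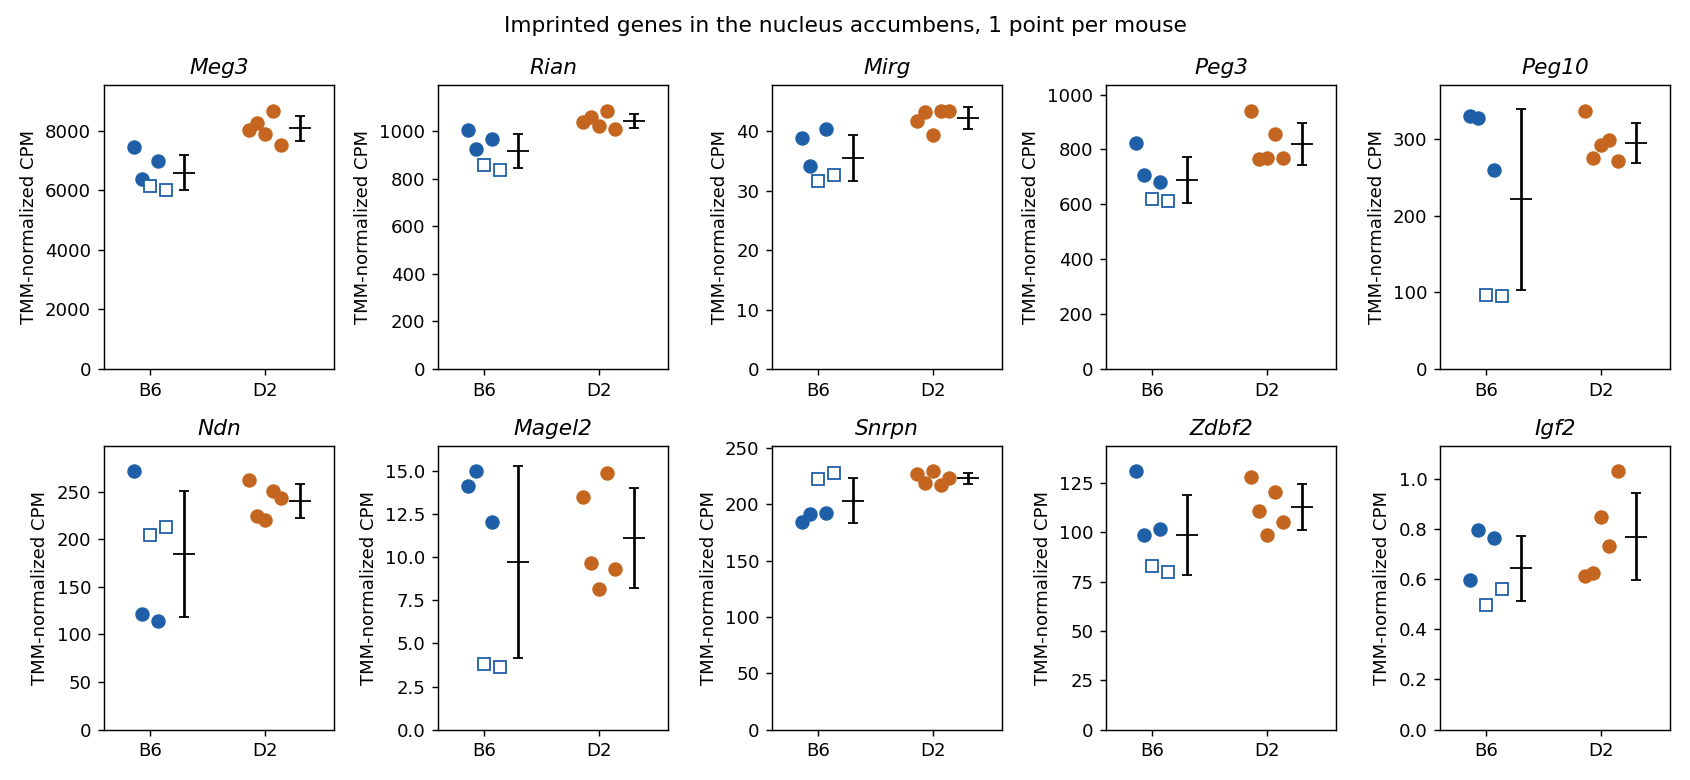
TMM-normalized CPM of the 10 imprinted genes, 1 point per mouse, for 5 B6 (blue) and 5 D2 (orange) mice, with mean and SD beside each group and B6 mice 3 and 5 as open squares. Meg3 and Rian do not overlap between strains. B6 mice 3 and 5 are the lowest of all 10 mice for 8 of the 10 genes, and for 21 of 70 other imprinted genes. The share over all genes was not counted, and these mice also stood apart for markers of several cell types.

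Meg3, which can act on chromatin and is among the most abundant non-coding RNAs of neurons, took 0.738% of all counts. It stood at 7445, 6373, 6145, 6976 and 6022 TMM-normalized CPM in B6 mice 1 to 5 and at 8032, 8243, 7901, 8667 and 7526 in D2 mice 1 to 5. The lowest D2 mouse was above the highest B6 mouse, so the strains did not overlap. The difference was 0.29 ± 0.07 (log2, SE, n = 5 and 5), or 1.22-fold, with an edgeR adjusted p of 0.00745. It was called with each mouse left out in turn, and without B6 mice 3 and 5 it was 0.22 ± 0.06 with an adjusted p of 0.0164.

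Rian, the host of many C/D box small nucleolar RNAs, was at 1005, 925, 856, 966 and 837 CPM in B6 and at 1037, 1058, 1020, 1086 and 1010 in D2. The lowest D2 mouse and the highest B6 mouse were close, at 1010 and 1005. Rian was higher in D2 by 0.18 ± 0.05 (edgeR adjusted p = 0.0274). The call was lost when any 1 of B6 mice 3 and 5 or D2 mice 1, 2, 3 and 4 was left out (adjusted p from 0.0502 to 0.0743), and with both B6 mice out the difference was 0.11 with an adjusted p of 0.0752. Mirg was at 38.9, 34.2, 31.6, 40.5 and 32.6 CPM in B6 and at 41.7, 43.3, 39.4, 43.5 and 43.5 in D2. Only D2 mouse 3 fell within the B6 range. Mirg was higher in D2 by 0.25 ± 0.07 (edgeR adjusted p = 0.0190), without B6 mouse 5 the adjusted p was 0.0513, and without B6 mice 3 and 5 the difference was 0.16 with 0.0702.

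The 3 transcripts lie in a row on 1 strand, so their counts were also set against each other within each mouse. Rian counts were 0.135 to 0.145 of the Meg3 counts in B6 and 0.125 to 0.134 in D2, with no overlap. The ratio was lower in D2 by a log2 difference of -0.11, with a two-sided exact permutation p of 0.00794, the smallest that 5 against 5 mice can give, and 0.0556 after adjustment over the 7 ratios tested. Without B6 mice 3 and 5 the difference stayed at -0.11 (exact permutation p = 0.0357, the smallest for 3 against 5). For Mirg to Meg3 (-0.04, exact p = 0.437) and Mirg to Rian (0.07, exact p = 0.135) the test did not pass, nor did it without B6 mice 3 and 5 (-0.06 and 0.05), but Mirg to Rian passed before adjustment without B6 mouse 4 (0.10, exact p = 0.0476).

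**Figure D2:**
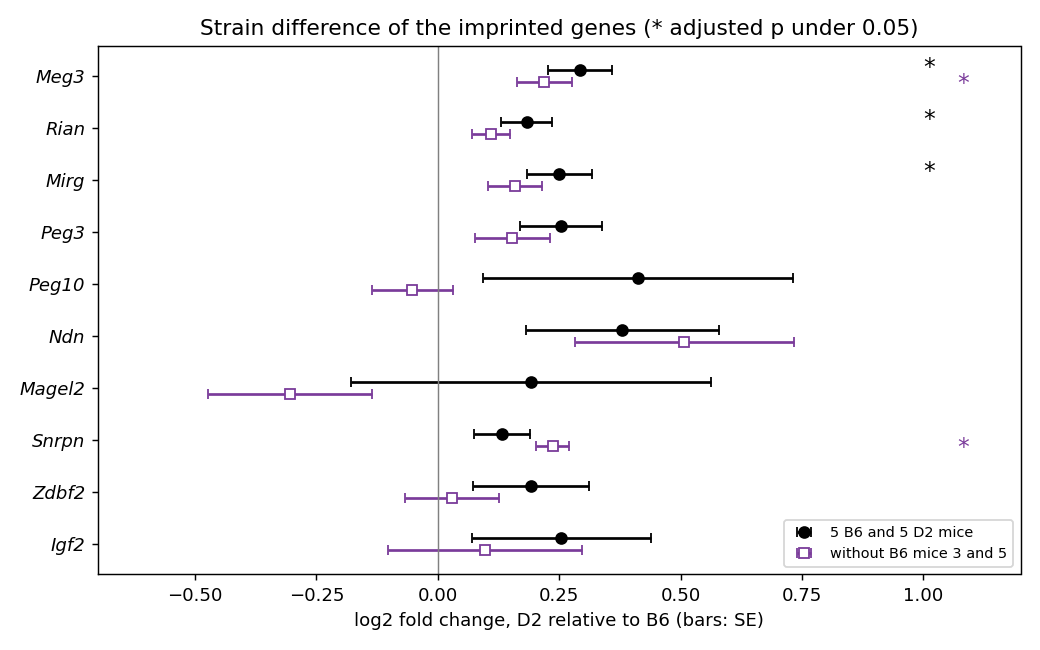
log2 fold change of D2 relative to B6 with its SE for each of the 10 imprinted genes, with all mice (black circles) and without B6 mice 3 and 5 (open purple squares); asterisks mark adjusted p under 0.05. Meg3 is called in both fits, Rian and Mirg only with all mice and Snrpn only without the 2 mice.

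The other measured genes of the Dlk1-Meg3 cluster were not called. Dlk1, a paternally expressed inhibitor of adipogenesis, was at 158, 163, 75.8, 152 and 75.3 CPM in B6 and at 160 to 191 in D2, a difference of 0.53 ± 0.21 (edgeR adjusted p = 0.105). B6 mice 3 and 5 were at about the same low level, and without them the difference was 0.19 and was called (adjusted p = 0.0257). The other 3 were not called in either fit. Begain, a postsynaptic protein gene, differed by 0.13, Rtl1, a retrotransposon-derived gene, by 0.20 and Dio3, which inactivates thyroid hormone, by 0.35 (edgeR adjusted p of 0.225 to 0.615). Begain was at 0.03, Rtl1 at -0.14 and Dio3 at -0.09 without B6 mice 3 and 5.

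Peg3, a paternally expressed zinc finger gene that affects maternal behavior, was at 822, 707, 620, 681 and 611 CPM in B6 and at 941, 765, 768, 857 and 770 in D2. B6 mouse 1 lay within the D2 range and the other 4 below it. The difference was 0.25 ± 0.08 with an edgeR adjusted p of 0.0563, just short of the threshold, and 0.00715 without B6 mouse 1. Peg3 was called in 6 of 22 alternatives. Among them were DESeq2 (adjusted p = 0.0242), limma-voom (adjusted p = 0.045) and edgeR with total counts (adjusted p = 0.0441). The difference was 0.15 without B6 mice 3 and 5 (adjusted p = 0.214). Its neighbors Usp29 and Zim1 were 0.36 and 0.48 higher in D2 and were not called (edgeR adjusted p = 0.077 and 0.302). They were 0.16 and 0.09 higher without B6 mice 3 and 5, with single mice left out Zim1 ran from 0.31 to 0.69, and Usp29 was called without B6 mouse 1 (0.48, adjusted p = 0.00985). Zim2, Zim3 and Zfp264 averaged 2.4 to 4.2 counts per mouse.

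Zdbf2, a paternally expressed zinc finger gene on chromosome 1, was at 131, 98.5, 82.8, 102 and 79.8 CPM in B6 and at 128, 111, 98.9, 121 and 105 in D2. The groups overlapped. The difference of 0.19 ± 0.12 was not called (edgeR adjusted p = 0.331), was called without B6 mouse 1 (0.31, adjusted p = 0.0289), and was 0.03 without B6 mice 3 and 5. Adam23 and Cmklr2 of the same locus were at -0.13 and -0.03 and were not called, though Adam23 was called without B6 mouse 1 (-0.16, adjusted p = 0.0269).

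Peg10, a retrotransposon-derived gene made from the paternal copy, was at 331, 327, 96.5, 260 and 94.7 CPM in B6 mice 1 to 5 and at 338, 275, 293, 299 and 271 in D2. B6 mice 3 and 5 were far below the other 8 mice, which spanned 260 to 338. The mean difference of 0.41 ± 0.32 was not called (edgeR adjusted p = 0.449), and it was -0.05 ± 0.08 without the 2 mice. The ratio of Peg10 to Sgce counts, a pair that shares a promoter region, was 10.1, 10.2, 3.66, 8.53 and 3.48 in B6 and 9.43 to 11.8 in D2 (log2 difference 0.70, two-sided exact permutation p = 0.0556, adjusted 0.194). It passed before adjustment without B6 mouse 2 (0.87, exact p = 0.0317) or D2 mouse 5 (0.74, exact p = 0.0476), and without B6 mice 3 and 5 it differed by 0.13 (exact permutation p = 0.250).

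Magel2, a MAGE family gene of the Prader-Willi cluster, showed the same B6 mice low. It was at 14.1, 15.0, 3.80, 12.1 and 3.65 CPM in B6 and at 13.5, 9.68, 8.16, 14.9 and 9.34 in D2. The difference was 0.19 ± 0.37 (edgeR adjusted p = 0.799) and -0.31 ± 0.17 without B6 mice 3 and 5 (adjusted p = 0.261). Both mice were high for cortex markers and low for meningeal ones, and each marker list was held as a covariate in turn. The covariate was the mean log2 CPM of the listed markers, which differs from the summed CPM given here. With the cortex covariate, Peg10 was at 0.94 (edgeR adjusted p = 1.79e-06) and Magel2 at 0.78 (adjusted p = 0.00145), and 7 of the 10 genes were called against 26.2% of all genes. With the meningeal covariate, Peg10 was at 0.24 (adjusted p = 0.686) and Magel2 at 0.08 (adjusted p = 0.922), and 1 of the 10 genes, Meg3, was called against 16% of all genes. The 2 covariates moved both differences in opposite directions. Both fits included B6 mice 3 and 5, which held the highest cortex and the lowest meningeal sums of all mice. Neither fit was run without them, so how far these values rest on those mice was not tested. Within D2, the mouse with the lowest cortex sum (319 CPM) had 338 CPM of Peg10 and 13.5 of Magel2, the mouse with the highest (702 CPM) had 293 and 8.16, and the mouse with the highest Magel2 (14.9) had a cortex sum of 566.

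**Figure D3:**
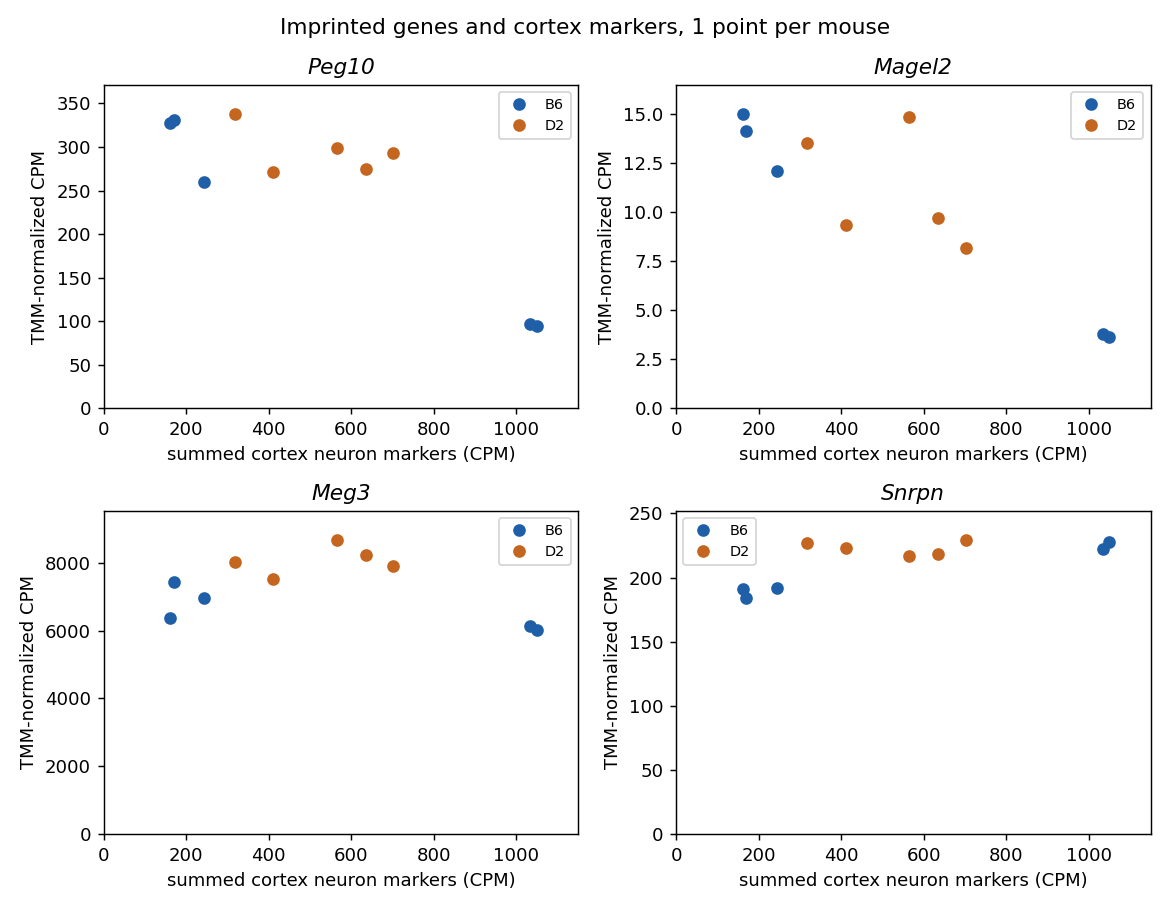
TMM-normalized CPM of Peg10, Magel2, Meg3 and Snrpn against the summed CPM of 8 cortex neuron markers, 1 point per mouse. B6 mice 3 and 5, at 1034 and 1050 CPM of cortex markers, are the lowest for Peg10, Magel2 and Meg3 and lie with the D2 mice for Snrpn.

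Ndn, the MAGE gene next to Magel2, varied among B6 mice in another way. It was at 271, 121, 204, 114 and 213 CPM in B6 mice 1 to 5, so that mice 2 and 4 were low, and at 262, 225, 220, 251 and 243 in D2. B6 mice 2 and 4 were not low for Magel2. The difference of 0.38 ± 0.20 was not called (edgeR adjusted p = 0.234) but was called without B6 mouse 1 (0.56, adjusted p = 0.0422), and was 0.51 without B6 mice 3 and 5 (adjusted p = 0.152). The Magel2 to Ndn ratio ran from 0.0172 to 0.124 in B6 and from 0.0371 to 0.0593 in D2, and its mean log2 difference was -0.04 (two-sided exact permutation p = 0.929), or -0.96 without B6 mice 3 and 5 (exact p = 0.0714).

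Snrpn, which encodes a core protein of the spliceosome in neurons, was at 184, 191, 222, 192 and 228 CPM in B6 and at 227, 219, 229, 217 and 223 in D2. B6 mice 3 and 5 lay within the D2 range, and the other 3 B6 mice were below it. With all mice the difference was 0.13 ± 0.06 (edgeR adjusted p = 0.147), and without these 2 mice it was 0.24 ± 0.03 and was called (adjusted p = 0.000317). Same-strand Gm38393 shared 13.3% of its exonic bases in the annotation, so some reads could be split. The Snrpn to Ndn ratio differed by -0.32 (two-sided exact permutation p = 0.246), or -0.39 without those mice (exact p = 0.214), and it passed before adjustment without B6 mouse 1 (-0.51, exact p = 0.0159).

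Other genes of the Prader-Willi cluster were called in both directions. Snhg14, the long host transcript downstream of Snrpn that silences Ube3a on the paternal copy, was at 173, 139, 129, 139 and 119 CPM in B6 and at 101, 91.6, 104, 118 and 91.4 in D2. The strains did not overlap, and Snhg14 was lower by -0.47 ± 0.10 (edgeR adjusted p = 0.00369), or -0.57 without B6 mice 3 and 5. Ube3a, the ubiquitin ligase gene it overlaps on the opposite strand over 8.29% of the exonic bases of Ube3a, was higher by 0.19 (adjusted p = 0.0336), and without B6 mice 3 and 5 it was no longer called (0.13, adjusted p = 0.143). With 1 mouse left out, Ube3a kept its call in 3 of 10 fits, those without B6 mouse 1 or D2 mouse 2 or 5. The strand setting of the counting was not given, so reads of the 2 genes in the shared bases cannot be assigned with certainty. Mkrn3 was lower in D2 by -0.44 and lost its call without the 2 mice (adjusted p = 0.0331 and 0.0829), and with 1 mouse left out it kept the call in 2 of 10 fits, those without B6 mouse 1 or D2 mouse 3. Atp10a (-0.29) and Peg12 (-0.07) were not called, though Atp10a was called without D2 mouse 1 (-0.36, adjusted p = 0.036).

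Igf2, a fetal growth factor that the adult brain makes mainly in meninges, choroid plexus and vessels, was at the low end with 47 to 109 counts per mouse. It was at 0.60, 0.79, 0.50, 0.76 and 0.56 CPM in B6 and at 0.61, 0.62, 0.85, 0.73 and 1.03 in D2. The groups overlapped, and the difference of 0.25 ± 0.18 was not called (edgeR adjusted p = 0.413). D2 mouse 5 was highest for Igf2 and also for the summed meningeal markers (86.3 CPM). With the mean log2 CPM of these markers as a covariate, the Igf2 difference was 0.02. It was 0.10 without B6 mice 3 and 5 (edgeR adjusted p = 0.810). The ratio of Igf2 to the summed meningeal marker counts was 0.0128 to 0.0157 in B6 and 0.0119 to 0.0170 in D2 (log2 difference -0.05, two-sided exact permutation p = 0.675). Gm49394 shares 58.4% of the exonic bases of Igf2 on the same strand, so Igf2 counts are uncertain. Its neighbor H19 averaged 4.2 counts, Ins2 3.2 and Ascl2 17.8, and Th, the dopamine synthesis gene at this locus, was lower in D2 by -0.30 (edgeR adjusted p = 0.0296). Th lost its call without B6 mouse 2 or 4 or D2 mouse 1 or 4 (adjusted p from 0.0592 to 0.0712).

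Per kilobase of merged annotated exons, Meg3 was by far the highest at 380 ± 47.8 CPM per kb (SD over 10 mice), followed by Ndn at 56.2 ± 14.4, Peg3 at 55.2 ± 7.58, Peg10 at 38.8 ± 13.5, Rian at 30.6 ± 2.61, Snrpn at 22.7 ± 1.83, Zdbf2 at 8.31 ± 1.36, Mirg at 4.03 ± 0.47, Magel2 at 2.25 ± 0.92 and Igf2 at 0.11 ± 0.03. Ndn was above Peg3 in 8 of 10 mice, all but B6 mice 2 and 4, and their SDs overlapped. Peg10 was above Rian in 8 of 10 mice, at 40.7 to 50.6 against 31.6 to 33.95 in D2, and below it in B6 mice 3 and 5, at 14.5 and 14.2 against 26.8 and 26.2. The order depends on the length taken, since Rian and Meg3 have many annotated isoforms, and per kilobase of the canonical transcript Rian came 2nd at 304 ± 25.9.

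**Figure D4:**
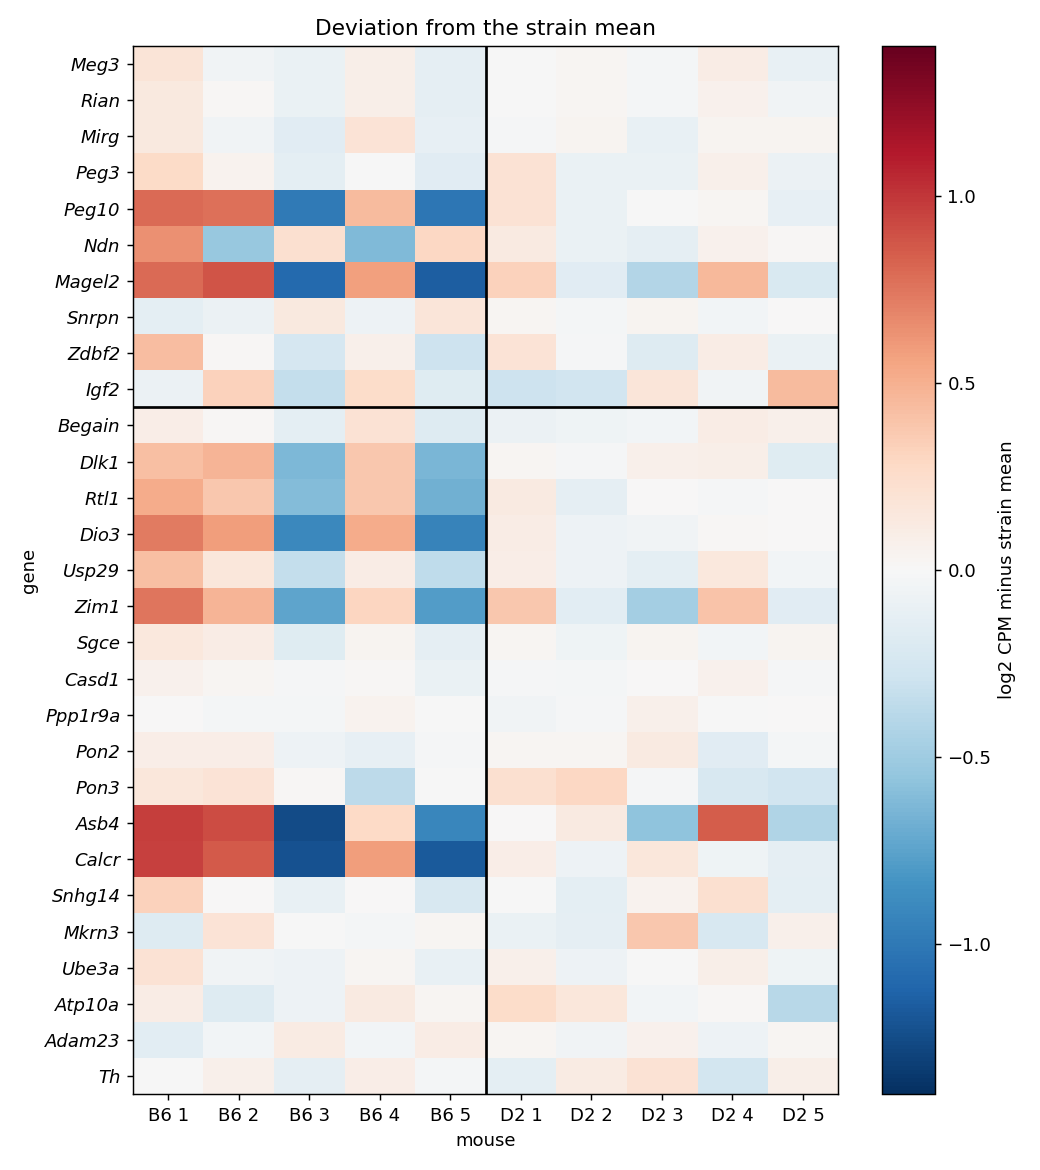
Deviation of each mouse from its strain mean, in log2 CPM, for the 10 imprinted genes (above the line) and those other imprinted genes of their loci that averaged 100 counts or more (below the line), with B6 mice left and D2 mice right of the line. B6 mice 3 and 5 are low for Peg10, Magel2, Dlk1, Dio3, Zim1 and Calcr, and high for Snrpn.

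The genes moved together within strains to different degrees. Over the 10 mice, the deviations of Meg3 and Rian from their strain mean had a Pearson r of 0.95, those of Peg10 and Magel2 0.96, and those of Rian and Snrpn -0.94, while Ndn had -0.32 to 0.25 with the other 8 genes that averaged 100 counts or more. These values describe 10 libraries, 2 of which stand apart. Without B6 mice 3 and 5, Ndn had 0.83 with Zdbf2, 0.74 with Peg3, 0.60 with Rian, 0.57 with Meg3, 0.52 with Peg10, 0.26 with Magel2, 0.23 with Mirg and -0.60 with Snrpn over 8 mice, and the r of Peg10 and Magel2 was 0.61 and that of Rian and Snrpn was -0.77. Among 15388 genes, the deviations most like those of Meg3 were of Srrm1 (r = 0.99), a splicing cofactor gene, and A230057D06Rik (0.98), those of Peg10 were of Calcr (0.99), its neighbor on chromosome 6, and Chrm5 (0.99), and those of Peg3 of Enah (0.98). Those of Rian were most like Srsf1 and N4bp2 (0.98 each), Mirg like Per3 and Por (0.98 and 0.96), Ndn like Osbpl6 and Gm29514 (0.95 each), Magel2 like Pi16 and Gemin5 (0.99 each), Snrpn like Rnf157 and Gpr137 (0.99 each) and Zdbf2 like Zmym4 and Tnrc6a (0.98 and 0.97). Each of these was picked as the highest or next highest of 15388 genes, so high values follow in part from the search. Without B6 mice 3 and 5, the r of these pairs ran from 0.81 for Peg10 with Calcr to 0.98 for Zdbf2 with Zmym4. That of Meg3 with Srrm1 was also 0.98.

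Of 70 other imprinted genes that were measured, 13 were called, 7 higher and 6 lower in D2, or 18.6%, close to the 18.3% of all genes. The 70 were listed as genes of imprinted loci, and whether each is imprinted in the NAc was not measured. Their median difference was 0.02, and without B6 mice 3 and 5 the count was 19, or 27.1% against 19.2% of all genes. In the Peg10-Sgce cluster Pon2, a lactonase gene, was 44.2, 44.2, 39.4, 38.3 and 40.9 CPM in B6 and 22.5 to 27.3 in D2. No values overlapped, and it was lower by -0.72 ± 0.06 (edgeR adjusted p = 1.39e-06). Casd1 (0.15) and Ppp1r9a (-0.12) of the same cluster were called, and both calls held without B6 mice 3 and 5. Ppp1r9a kept its call in 4 of 10 fits with 1 mouse left out, losing it without B6 mouse 1 or 4 or D2 mouse 1, 2, 4 or 5 (adjusted p up to 0.0869). Sgce (-0.09), Calcr (0.69), Pon3 (0.33), Asb4 (-0.04) and Tfpi2 (0.04) were not called. When B6 mice 3 and 5 were left out, Calcr was at 0.17 and Asb4 at -0.53, neither called, and Sgce was called at -0.18 (adjusted p = 0.0104). Elsewhere Dcn, a matrix proteoglycan gene (0.64), Sfmbt2 (0.42) and Nap1l4 (0.14) were higher and Gatm, for creatine synthesis (-0.33), was lower, all called. Without B6 mice 3 and 5, Sfmbt2 was at 0.26 and lost its call (adjusted p = 0.0546), while Dcn at 0.41, Nap1l4 at 0.12 and Gatm at -0.26 were called. Slc22a2 and Slc22a18 were called with means of 40.7 and 38.1 counts, and were named after their values were seen; Slc22a18 lost its call without B6 mice 3 and 5 and without B6 mouse 2, 4 or 5 or D2 mouse 5 (adjusted p from 0.0553 to 0.0697).

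**Figure D5:**
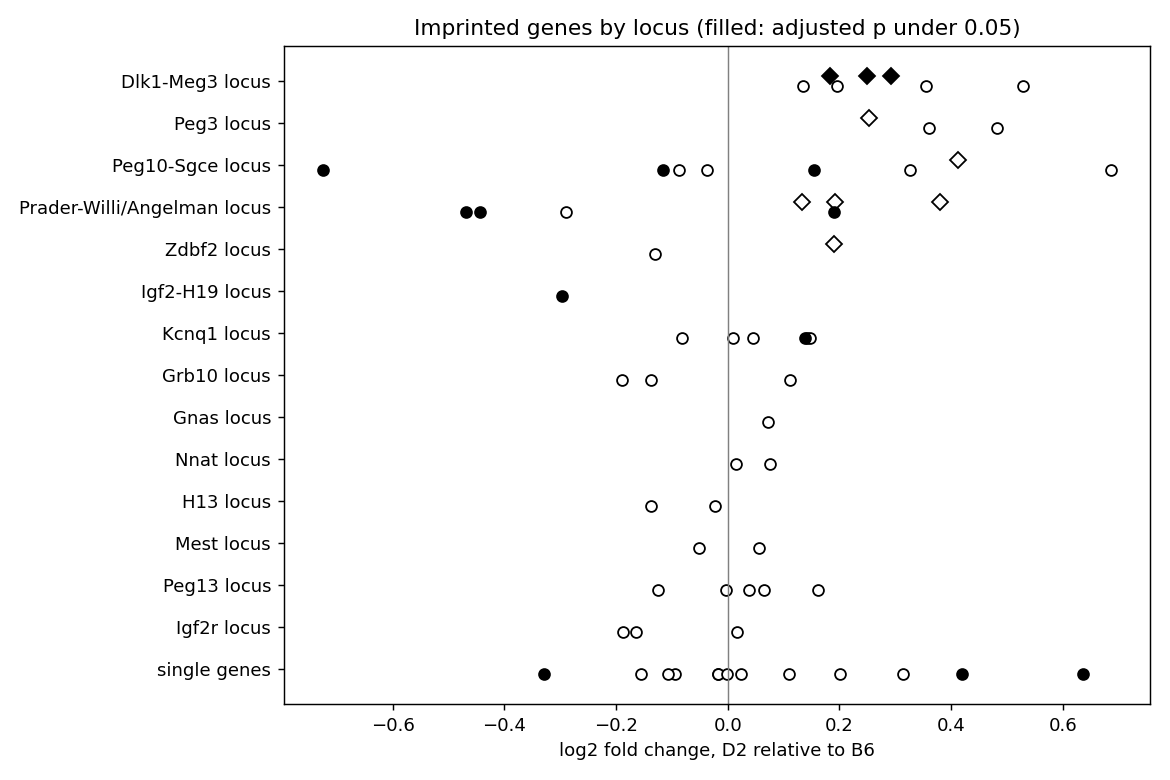
log2 fold change of D2 relative to B6 by imprinted locus, for imprinted genes that averaged 100 counts or more, with the 9 of the 10 genes of interest that reach it as diamonds and other imprinted genes as circles, filled where adjusted p was under 0.05. The filled diamonds are the 3 of the Dlk1-Meg3 locus, and Pon2 is the leftmost point at -0.72.

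Genes of the machinery that keeps imprints were also examined. Of 17 genes for DNA methylation, its removal and the zinc finger complexes that guard imprints, 2 were called, both higher in D2, or 11.8% against 18.3% of all genes. Zfp445, a zinc finger protein that binds imprint control regions, was at 240 to 276 CPM in B6 and 291 to 323 in D2 (0.21 ± 0.04, edgeR adjusted p = 0.00527), and Trim28, the corepressor it recruits, was at 115 to 128 and 131 to 135 (0.14 ± 0.03, edgeR adjusted p = 0.0095). Neither overlapped between the strains, and both stayed called without B6 mice 3 and 5. Zfp57 was 0.32 higher and was not called (edgeR adjusted p = 0.265), and it was 0.08 higher without B6 mice 3 and 5. Dnmt1, which copies methylation at cell division, was at 0.04.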

How the data were processed

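NAc poly-A RNA was sequenced from 10 male mice, 5 of each strain. The authors trimmed reads with fastp, aligned both strains to the C57BL/6J genome (Ensembl annotation) with STAR 2.7.10b, sorted with SAMtools 1.6 and deposited raw featureCounts counts per gene. The setting for strand is not given in the sources used here. All columns were used.

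From these counts, edgeR 4.0.16 (TMM scaling, quasi-likelihood test, R 4.3.3) compared D2 with B6 over all 29883 genes, with Benjamini-Hochberg adjustment and a threshold of 0.05. Replicates are separate mice by their labels. Levels are TMM-normalized CPM, errors are SD or SE as named, and ratios of counts had exact permutation tests (252 assignments). Alternatives used DESeq2 1.42.0, limma 3.58.1, other scalings and filters, covariates, a replicate block and left-out mice. On simulated data for 5 B6 against 5 D2 with 200 of 29883 genes changed 2-fold, edgeR recovered 186 with 10 false calls. The changed genes averaged 100 counts or more. Smaller differences, such as those of Meg3, Rian and Mirg, and mice that stand apart were not simulated.

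The named genes were the 10 genes themselves, every measured imprinted gene of their loci, of other loci the called genes that averaged 100 counts or more, called maintenance genes, and the 2 genes most like each. Of 74 other imprinted genes listed 70 were matched. Coordinates are GRCm39 (GENCODE), and the promoters and microRNAs are GRCm38.p6 (RefSeq). The genes and lists were chosen with earlier results of these data known.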

Additional observations from a re-analysis of the deposited data

How the results depend on the processing

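Under 22 alternatives for each gene, the difference of Meg3 was called in all 22, that of Mirg in 19 and that of Rian in 14, always higher in D2. The count of called genes among the 10 was 3, became 4 with DESeq2 and with limma-voom, and became 5 with total counts. It became 1 with meningeal markers and 7 with cortex markers as a covariate, and 1 at an adjusted p under 0.01. With single mice left out it was 1 to 6 (6 without B6 mouse 1, 1 without B6 mouse 5). Among the other imprinted genes it was 13 and became 29 with the cortex covariate, under which 7836 of all genes were called (26.2%), 6 at an adjusted p under 0.01, and 8 to 18 with single mice left out (8 without B6 mouse 4). Over all genes 5478 were called, 3415 at an adjusted p under 0.01, and 4636 to 5676 with single mice left out. The cause of these changes was not tested.

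The difference of Peg10 reversed to -0.052 without B6 mice 3 and 5, an alternative chosen after seeing the data, and that of Magel2 to -0.31. With single mice left out Magel2 ran from -0.024 to 0.40, at -0.017 without B6 mouse 3 and -0.024 without B6 mouse 5. With single mice left out, the log2 difference of the Magel2 to Ndn ratio ran from -0.40 to 0.31, that of Igf2 to meningeal markers from -0.13 to 0.0016, of Mirg to Rian from 0.048 to 0.099, of Snrpn to Ndn from -0.51 to -0.18, and of Peg10 to Sgce from 0.48 to 0.87. With 1 mouse left out, Snrpn to Ndn passed without B6 mouse 1 (exact p = 0.0159), Peg10 to Sgce without B6 mouse 2 (exact p = 0.0317) or D2 mouse 5 (exact p = 0.0476), and Mirg to Rian without B6 mouse 4 (exact p = 0.0476), before adjustment over the ratios. Igf2 to meningeal markers was at 0.0067 without B6 mice 3 and 5 and, by denominator, at 0.32 with endothelial and at -0.20 with choroid plexus markers, none of which passed.

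Mice of the 2 strains share only replicate numbers, and the deviations of same-numbered mice had correlations of -0.42 to 0.37. With a replicate block, 5 of the 10 genes were called, Peg3 and Zdbf2 added, and 4731 genes in all. The Rian to Meg3 ratio stayed at -0.11 in the paired form, where 5 pairs cannot give an exact p under 0.0625. Depth limits Igf2, at 47 to 109 counts.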
